A study of Mus musculus with 16 samples.

Results

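Trophoblast regulators and markers were followed through mouse embryos that lack miR-302 (KO) and wild-type embryos (WT). The 10 genes were taken by name, with earlier results of these data known: Plac1, Plet1, Rhox6, Rhox9, Cts8, Tpbpa, Ascl2, Gcm1, Elf5 and Hand1. All 10 were found among the 24421 genes of each table. Placental proteins and the Rhox homeobox genes are described first, then the regulators Ascl2, Elf5 and Hand1, and last the scarce Tpbpa and Gcm1.

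At embryonic day 7.5 (E7.5) whole embryos were used, with 2 KO and 2 WT libraries. At E8.5, 4 KO and 3 WT libraries came from flow-sorted cells carrying Wnt1-Cre, a driver active in the dorsal neural tube and the neural crest. At E9.5, 2 KO and 2 WT libraries came from sorted Sox10-positive cells, and Sox10 marks migrating crest. All embryos were of the C57BL/6 strain, and the labels give no further allele. Another KO sample of E8.5, KO4_5s, is not analysed here. Whether libraries of a group came from separate embryos, pools or litters is not stated in the labels, and p-values therefore cover the spread among these libraries, which may be technical.

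Trophoblast is the first lineage set aside in the mouse embryo and forms most of the placenta. Around E7.5 its stem cells lie in the extraembryonic ectoderm and chorion, kept by transcription factors such as Elf5, while the ectoplacental cone above them gives spongiotrophoblast and the outer giant cells invade the uterus and secrete placental lactogens. Giant cells form under the bHLH factor Hand1, ectoplacental cone progenitors need the bHLH factor Ascl2, and labyrinth syncytiotrophoblast forms under Gcm1. The placenta is not part of the tissues sorted at the later stages.

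Libraries held 4912827 to 9184436 gene-assigned reads at E7.5. The ranges were 9008784 to 13517860 for E8.5 and 7300598 to 14861728 for E9.5. Over the miR-302 precursors, which poly(A)-primed libraries capture poorly, the E7.5 KO libraries held 0 and 0 reads and the WT libraries 14 and 25. At the later stages no library held more than 1 such read, so those labels could not be checked this way. Values are the authors' normalised counts, which are gene counts divided by 1 factor per library. Sox10 had 690.1 to 932.0 normalised counts in KO and 661.8 to 1017 in WT libraries at E8.5, and 510.9 to 1165 in KO and 639.4 to 722.0 in WT libraries at E9.5. At E7.5 Pou5f1, a marker of the epiblast, had 788.5 to 2605 in KO and 1557 to 1963 in WT libraries.

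miR-302 acts through its seed, bases 2 to 8 of the mature strand, which pairs with sites mostly in 3′UTRs and generally lowers the level of the target. Mature strands of the cluster are shown because a seed defines which letters were searched for in the 10 genes. They are 3p strands from RefSeq (GRCm38.p6, chromosome 3, plus strand), with the seed in capitals. The reference used held no miR-302a-3p. miR-302b-3p and miR-302d-3p share the same seed, which gave the letters searched for. The recorded miR-302c-3p starts a base later in it, and letters matching its own recorded seed were not searched for separately.
mmu-miR-302b-3p: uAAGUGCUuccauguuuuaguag
mmu-miR-302d-3p: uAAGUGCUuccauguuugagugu
mmu-miR-302c-3p: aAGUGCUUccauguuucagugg

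A stretch of letters matching the seed of miR-302b-3p and miR-302d-3p (AGCACTT, or GCACTT for a shorter match) was found in the longest annotated 3′UTR of 4 of the 10 genes. Rhox6, Rhox9 and Cts8 held the 7-letter match and Plet1 a 6-letter one. The 7 letters were present in 15.3% of 21166 annotated 3′UTRs and the 6 letters in 29.8%. The windows are shown because they belong to genes that stood higher in KO at E7.5, with the match in capitals and positions counted from the first base of the 3′UTR. Each position is that of the first base of GCACTT, so a 7-letter match starts at the base before it.
Rhox6 (position 14 of 138): attttggagcAGCACTTgagtgccagcc
Rhox9 (position 1758 of 1851): attttggagcAGCACTTgagtgcctccc
Cts8 (position 182 of 1409): ctgtaacttaAGCACTTcacttatttgt
Plet1 (position 144 of 937): gcaacactagtGCACTTgagggatacaa
The Rhox6 and Rhox9 windows read alike for most of their length, since the genes are paralogs. Cts8 held a second, 6-letter match at position 55. No match was found in the 3′UTRs of Plac1, Tpbpa, Ascl2, Gcm1, Elf5 or Hand1. A match is a description of letters and not a tested site.

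At E7.5, 5 of the 10 genes stood higher in both KO libraries than in both WT libraries. They were Plac1, Plet1, Rhox6, Rhox9 and Cts8, by 2.16- to 12.8-fold. Among all genes tested, 16.1% had both KO libraries above both WT libraries and 12.7% had both below. Elf5 and Hand1 overlapped between genotypes, Ascl2 was lower in both KO libraries by a small margin, and Tpbpa and Gcm1 were too low to test. No gene of the 12492 tested passed an adjusted p of 0.05 in limma's moderated test at this stage (0%), where the smallest adjusted p was 0.850, so none of these differences counts as a call. At an unadjusted p below 0.05, 5 of the 8 tested genes were higher in KO and 0 lower. Over all genes that share was 2.18% higher and 0.905% lower. Since the 10 genes were chosen with earlier results of these data known, the excess is a description and not a test. DESeq2 on the recovered reads called 31 genes, of which 3 were among the 10 (Plac1, Plet1 and Cts8), and edgeR's quasi-likelihood test called 0. Code numbers in the labels, whose meaning is not given, set KO2 (237) apart from the other 3 libraries (239). With those 3 libraries only, the log2 fold changes were 1.51 for Plac1, 1.37 for Plet1, 0.61 for Rhox6, 1.01 for Rhox9 and 3.37 for Cts8 (limma, adjusted p = 0.000108 for Cts8 and 1 for the others, with KO1 alone in its group and assumed to vary like the WT libraries). In these bulk samples, more cells of a type and more RNA per cell cannot be told apart.

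Plac1, a gene of the X chromosome (GRCm38, X:53069995-53240111, minus strand), encodes a secreted and membrane-linked trophoblast protein needed for normal placental development. It had 2330 and 2834 normalised counts in the KO libraries, against 1020 and 657 in the WT libraries. Both KO libraries lay far above both WT libraries. The means were 2582 ± 357 in KO and 839 ± 257 in WT (SD, n = 2 each), a log2 fold change of 1.65 ± 0.32 (SE, limma, adjusted p = 0.850), with a 95% interval of 0.90 to 2.40.

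Plet1 (chromosome 9, 50494525 to 50505482, plus strand) encodes a cell-surface protein of extraembryonic ectoderm and ectoplacental cone. Its normalised counts were 1677 and 2584 in KO libraries, against 718 and 583 in WT libraries. Again the groups did not overlap, and the log2 fold change was 1.68 ± 0.32 (SE, limma, adjusted p = 0.850). The ratio of Plac1 to Plet1 was 1.39 and 1.10 in KO and 1.42 and 1.13 in WT libraries, so the pair stood in much the same proportion in either genotype.

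Cts8 (chromosome 13, 61246745 to 61255358, minus strand) belongs to a rodent-specific cluster of placental cysteine proteases, which giant and spongiotrophoblast cells express. It had 910 and 1377 normalised counts in KO libraries, against 220 and 33.9 in WT libraries. Both KO libraries lay above both WT libraries. On the log2 scale the WT libraries lay farther apart than the KO libraries, and WT2 rested on 27 reads. The log2 fold change was 3.67 ± 0.75 (SE, limma, adjusted p = 0.879, 95% interval 1.92 to 5.43), the largest of the 8 tested genes. Ordered from the highest log2 fold change in KO down to the lowest, Cts8 ranked 6 of 12492 genes. Of the 50-base windows in the Cts8 transcripts, 52.1% occur in another annotated gene, nearly all in an overlapping locus on the same strand (Gm49398), so how reads were assigned there is uncertain. Cts8 passed the threshold when KO1, KO2 or WT1 was left out (adjusted p = 3.1e-07, 0.000108 and 0.0178, limma with a lone library assumed to vary like the others) and not when WT2 was. The log2 fold change was 2.34 without WT2 and 5.004 without WT1.

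Rhox6 and Rhox9 are nearby homeobox genes of the X-linked Rhox cluster (37826910 to 37829857, plus strand, and 37899097 to 37901770, minus strand) and are known from placenta and germ cells. Rhox6 had 152 and 307 normalised counts in KO libraries, against 103 and 95.5 in WT libraries. Rhox9 had 75.1 and 159 in KO libraries, against 37.2 and 36.4 in WT libraries. For both genes the KO libraries lay above the WT libraries, and KO2 was the highest library. The log2 fold changes were 1.11 ± 0.41 for Rhox6 and 1.55 ± 0.47 for Rhox9 (SE, limma, both adjusted p = 0.99996). Between them 16.5% of 50-base windows of Rhox6 occur in Rhox9, and counts of the pair could be split by the counting. The other Rhox genes did not stand with them: of 6 tested, 1 had a log2 fold change above 0, all overlapped between genotypes and the median was -0.29.

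Plac1, Rhox6 and Rhox9 lie on the X chromosome, and the E7.5 libraries differed in sex-linked transcripts. Xist, transcribed from the inactive X of female cells, had 296 and 8.81 normalised counts in KO libraries, against 412 and 1055 in WT libraries. Y-linked Ddx3y had 6.96 and 335 in KO libraries, against 351 and 5.03 in WT libraries. KO1 and WT2 were thus low in Ddx3y, KO2 was low in Xist, and WT1 held both transcripts. The part of this in the X-linked results was not tested.

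Ascl2 (chromosome 7, 142966829 to 142969264, minus strand) had 206 and 194 normalised counts in KO libraries, against 251 and 210 in WT libraries. KO lay just below WT in every library, with a log2 fold change of -0.20 ± 0.30 (SE, limma, adjusted p = 0.99996, 95% interval -0.90 to 0.51). Among all genes tested, 12.7% had both KO libraries below both WT libraries.

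Elf5 (chromosome 2, 103411688 to 103450989, plus strand) is an ETS-family factor of trophoblast stem cells. It had 40.4 and 79.3 normalised counts in KO libraries, against 83.6 and 72.9 in WT libraries. KO1 was low and rested on 29 reads, while KO2 lay between the WT libraries, so the groups overlapped, and the log2 fold change was -0.46 ± 0.45 (SE, limma, adjusted p = 0.99996, 95% interval -1.51 to 0.60). Without KO1 the estimate was 0.02.

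Hand1 (chromosome 11, 57828705 to 57832818, minus strand), which is needed for giant cells and is also expressed in extraembryonic mesoderm and heart, had 949 and 1860 normalised counts in KO libraries, against 1103 and 898 in WT libraries. KO2 stood above both WT libraries while KO1 lay between them. The log2 fold change was 0.42 ± 0.37 (SE, limma, adjusted p = 0.99996, 95% interval -0.45 to 1.28). Without KO2 the estimate was -0.07.

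Tpbpa (chromosome 13, 60938492 to 60941984, minus strand), the classic spongiotrophoblast marker, had 7 and 5 reads in KO libraries, against 15 and 0 in WT libraries. Gcm1 (chromosome 9, 78051924 to 78065624, plus strand) had 0 and 2 reads in KO libraries, against 1 and 2 in WT libraries. Both fell under the mean of 10 normalised counts required for the test, and no difference was detectable at this depth.

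**Figure D1:**
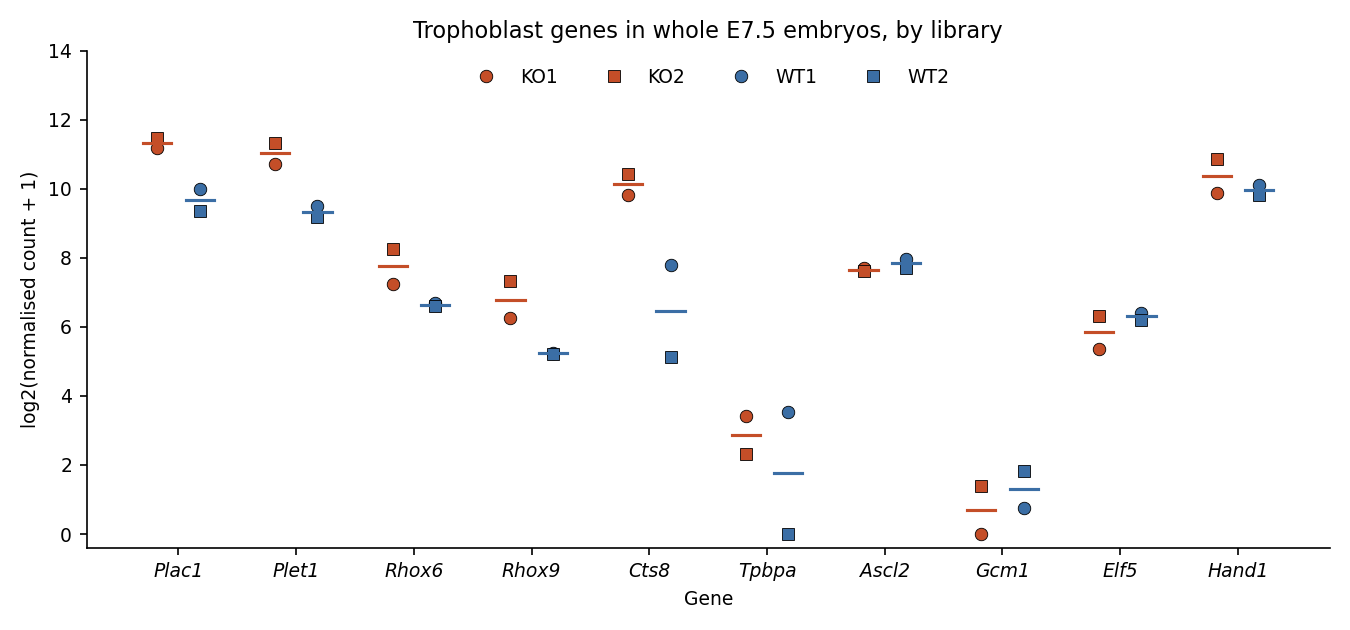
Normalised counts of the 10 genes in each E7.5 library (log scale, values plus 1), KO to the left of WT, with a point per library and a line at the mean of the log2 values. Plac1, Plet1, Rhox6, Rhox9 and Cts8 have both KO points above both WT points; Tpbpa and Gcm1 lie near 0.

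**Figure D2:**
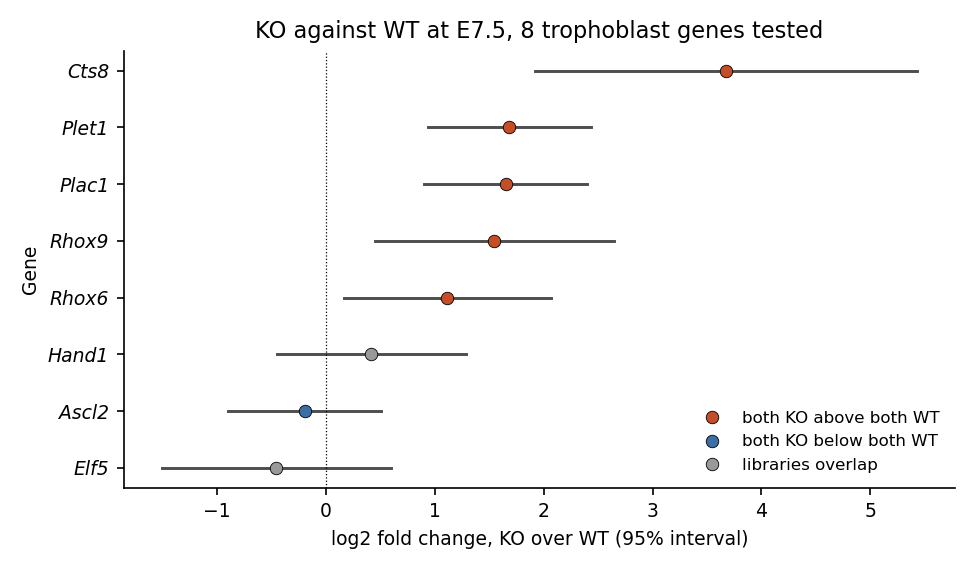
Log2 fold change (KO minus WT, limma) at E7.5 for the 8 tested genes, with 95% intervals. Cts8 is highest at 3.67, Plet1 and Plac1 sit at 1.68 and 1.65, and the intervals of Ascl2, Elf5 and Hand1 include 0.

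Among the 8 tested genes 6 had a log2 fold change above 0, against 48.9% of all genes, and the median was 1.33, against -0.0099 over all genes tested. The 10 genes together summed to 929 and 1331 RPM (reads scaled to the library total) in KO libraries and 550 and 349 RPM in WT libraries. That 5 of 8 had both KO libraries above both WT libraries stands beside 16.1% of all genes, and a 2-fold margin as well beside 1.95%. Because the genes were chosen with earlier results of these data known, these shares cannot test for an excess.

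Ratios to Elf5 give the proportions of the genes within each library. Elf5 was chosen for this after its values were seen and was itself lower on average in KO (log2 fold change -0.46, KO1 on 29 reads), which widens the gap for any gene higher in KO. Per Elf5 count, Plac1 had 57.7 and 35.7 in KO, against 12.2 and 9.02 in WT. Plet1 had 41.6 and 32.6 in KO, against 8.58 and 8 in WT. Rhox6 had 3.76 and 3.87 in KO, against 1.24 and 1.31 in WT, and Rhox9 had 1.86 and 2.01 in KO, against 0.445 and 0.500 in WT. Cts8 had 22.6 and 17.4 in KO, against 2.63 and 0.466 in WT. Hand1 also separated on this scale, with 23.5 and 23.4 in KO, against 13.2 and 12.3 in WT, whereas Ascl2 overlapped, with 5.10 and 2.44 in KO, against 3.0 and 2.88 in WT. With 2 libraries against 2, an exact permutation test of a single ratio cannot go below 0.333, so these ratios are given as descriptions. The gap depended on the denominator: for Plac1 the log2 ratio differed between KO and WT by 2.11 over Elf5, 1.85 over Ascl2 and 1.23 over Hand1, and for Rhox6 by 1.58, 1.32 and 0.70 over the same genes.

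**Figure D3:**
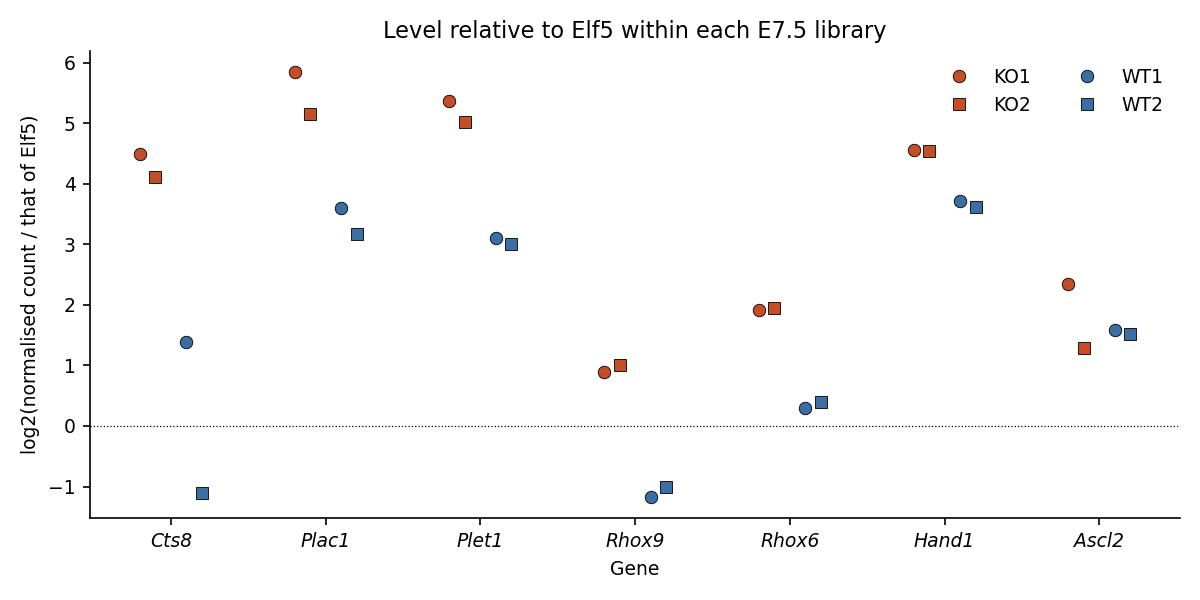
Ratio of each gene's normalised count to that of Elf5 in each E7.5 library (log scale), KO left of WT. Rhox6 and Rhox9 ratios are close within a genotype (3.76 and 3.87 in KO, 1.24 and 1.31 in WT for Rhox6); Ascl2 overlaps.

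Promoters of Plet1 and Cts8, which stood higher in KO at E7.5, and of Ascl2, which stood slightly lower, are shown for their letter content. Of the 10 genes, 7 have an entry from RefSeq (GRCm38.p6, 300 bases, most of them before the start), and Rhox6, Rhox9 and Hand1 have none. Letters searched on both strands were the GATA sequences AGATAA and TGATAA, AP-2 GCCNNNGGC, GCM ATGCGGGT, the E-boxes CAGCTG and CATCTG, the ETS core GGAAGT and the TATA box TATAAA. Matches are in capitals.
Plet1 (chr9:50494275-50494574, plus strand): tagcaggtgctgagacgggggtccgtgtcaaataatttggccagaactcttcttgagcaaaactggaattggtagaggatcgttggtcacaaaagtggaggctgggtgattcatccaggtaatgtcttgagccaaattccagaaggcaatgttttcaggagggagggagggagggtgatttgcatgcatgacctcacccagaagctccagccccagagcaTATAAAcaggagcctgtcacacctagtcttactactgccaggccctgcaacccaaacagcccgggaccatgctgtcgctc
Cts8 (chr13:61255299-61255598, minus strand): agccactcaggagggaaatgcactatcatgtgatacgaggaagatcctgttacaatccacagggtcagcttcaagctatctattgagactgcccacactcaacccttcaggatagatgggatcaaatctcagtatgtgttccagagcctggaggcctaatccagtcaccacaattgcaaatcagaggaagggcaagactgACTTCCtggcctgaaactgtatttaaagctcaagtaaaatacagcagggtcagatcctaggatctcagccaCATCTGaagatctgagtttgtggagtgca
Ascl2 (chr7:142969215-142969514, minus strand): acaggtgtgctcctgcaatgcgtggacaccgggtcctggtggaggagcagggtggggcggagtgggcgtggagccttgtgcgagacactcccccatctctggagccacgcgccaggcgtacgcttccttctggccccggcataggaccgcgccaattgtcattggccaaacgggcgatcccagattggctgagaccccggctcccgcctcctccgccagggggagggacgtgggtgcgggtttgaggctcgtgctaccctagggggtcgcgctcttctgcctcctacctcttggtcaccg
Plet1 held a TATAAA, a sequence found in 13.6% of 32851 promoters. Cts8 held the ETS letters on the other strand (23.8% of promoters) and a CATCTG after the start (17.2%). Ascl2 held none of the searched letters in this window, while its GC content was 67% with 23 CG pairs, against 52.3% and 5 for Plet1 and 46.7% and 1 for Cts8. Over all promoters the medians were 52.7% GC and 7 CG pairs. The upstream Plac1 promoter held an AGATAA on the other strand (11.2% of promoters). Tpbpa held the AP-2 letters (16.6%) and the upstream Elf5 promoter a CAGCTG (16.3%). None of the searched letters were found in Gcm1 or in the other promoters of Plac1 and Elf5.

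Other trophoblast genes gave the setting of these 10 at E7.5, from lists of genes by cell type, and limma called 0 genes in every list. The lists were also chosen with earlier results of these data known, so their shares are descriptions. Of the giant-cell list, 14 of 16 genes were tested, 12 had log2 fold changes above 0, 10 had both KO libraries above both WT libraries (16.1% of all genes) and 9 passed an unadjusted p of 0.05 and were higher (2.18% of all genes), with a median of 2.34. Its summed level was 7698 and 13529 RPM in KO libraries, against 3106 and 1387 RPM in WT libraries. Of the 8 other genes of the placental cathepsin cluster, 6 were at 0 in every library and 1 was tested. This was Cts7, with 5415 and 7451 normalised counts in KO libraries, against 1247 and 152 in WT libraries, a log2 fold change of 3.86 (limma, adjusted p = 0.909).

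The other trophoblast lists had medians of 0.12 to 0.20. For stem cell and extraembryonic ectoderm regulators, 12 of 20 tested genes had log2 fold changes above 0, with a median of 0.16, and the largest in size was Furin, a proprotein convertase, at 0.995. For ectoplacental cone, spongiotrophoblast and glycogen cells it was 7 of 12, with a median of 0.20, and Prl8a9, a prolactin-family gene, had 1439 and 986 in KO libraries, against 559 and 23.9 in WT libraries. For chorion and labyrinth it was 7 of 13, with a median of 0.12. Summed levels of the stem cell list were 878 and 1011 RPM in KO libraries, against 955 and 669 RPM in WT libraries, and those of the chorion list 1920 and 1525 RPM in KO libraries, against 1620 and 1631 RPM in WT libraries.

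**Figure D4:**
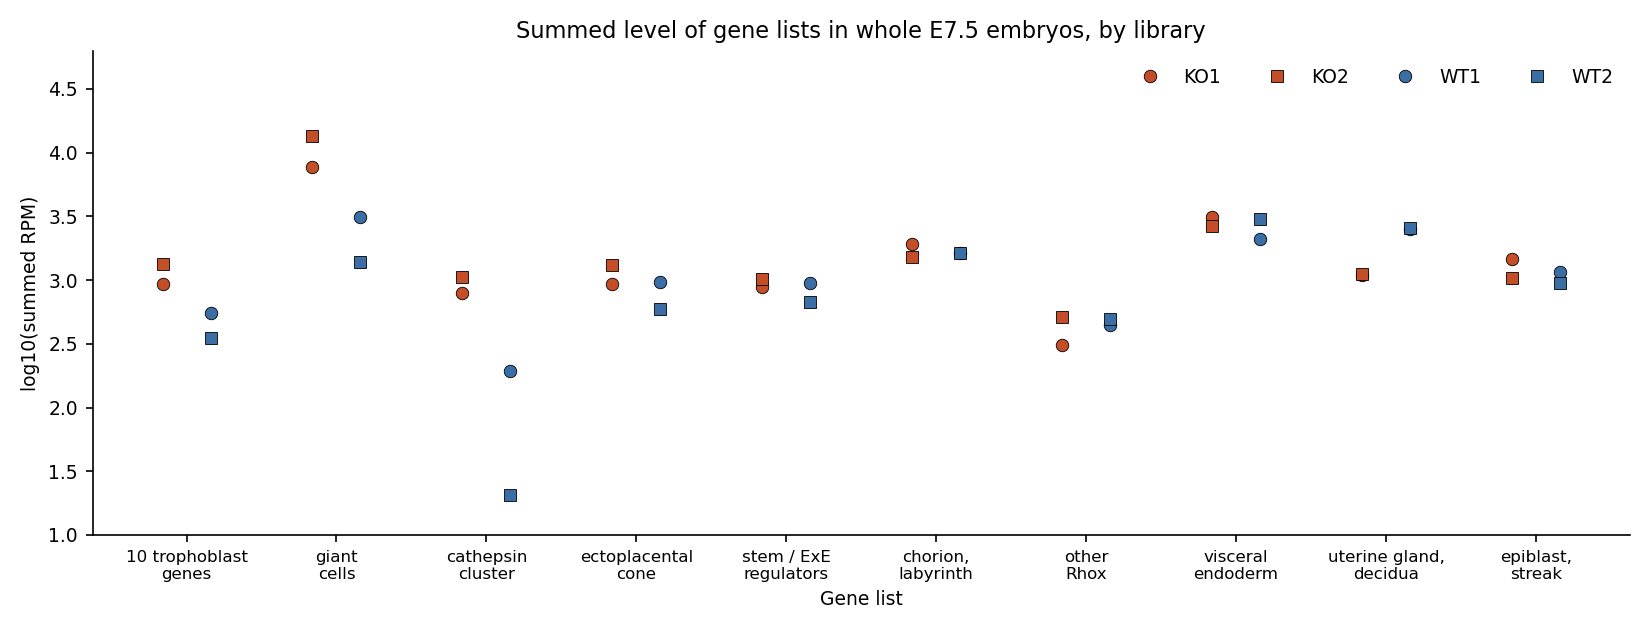
Summed level (RPM, log scale) of the 10 genes and of each list in each E7.5 library, KO left of WT. The giant-cell sum is 7698 and 13529 RPM in KO libraries and 3106 and 1387 RPM in WT libraries, and the uterine sum is higher in WT.

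Genes of uterine tissue stood mostly lower in KO at E7.5, with 0 called. In the list for uterine gland and decidua, 10 of 14 tested genes had log2 fold changes below 0, 5 had both KO libraries below both WT libraries (12.7% of all genes), 4 of those passed an unadjusted p of 0.05 (0.905% of all genes), and the median was -1.10. Prss29, a serine protease of uterine glands, had 6.96 and 2.40 normalised counts in KO libraries, against 139 and 6058 in WT libraries. Clu had 93.2 and 110 in KO libraries, against 661 and 7498 in WT libraries. The summed level was 1088 and 1124 RPM in KO libraries, against 2517 and 2546 RPM in WT libraries. Different genes made up the sums of WT1 and WT2. Prss29 and Clu were highest in WT2. Des had 394 and 720 normalised counts in KO libraries, against 6296 in WT1 and 239 in WT2. Cryab had 331 and 831 in KO libraries, against 1323 in WT1 and 147 in WT2. Prl8a2, a decidual gene, was high in all but WT2. The part of uterine tissue in the trophoblast results was not tested.

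The remaining lists had medians between -0.29 and 0.44. For extraembryonic visceral endoderm, 11 of 14 tested genes had log2 fold changes above 0, with a median of 0.29. For extraembryonic mesoderm it was 4 of 9, with a median of -0.13, and for epiblast and streak 7 of 12, with a median of 0.079. For neural crest it was 4 of 7, with a median of 0.44, and for primitive erythroid cells 1 of 2. Epiblast and streak genes summed to 1458 and 1041 RPM in KO libraries and 1147 and 957 RPM in WT libraries.

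Genes most like each tested gene over the 4 E7.5 libraries were sought in the 9574 genes whose mean reached 50, by the distance between log2 values centred on their own mean, for which a low value means similar. Cts8 was most like Psg22, a pregnancy-specific glycoprotein of giant cells (distance 0.190), and the nearest of the 10 genes to it was Plac1, at 2.49. Plac1 was nearest to Paqr4 (0.171), Plet1 to Hic1 (0.215), Rhox6 to Jdp2 (0.0836), Rhox9 to Nog (0.249), Ascl2 to Phf12 (0.0328), Elf5 to Id2 (0.105) and Hand1 to Hspb1 (0.0621). Plac1 and Plet1 were nearest each other among the 10 genes, at 0.340. These distances rest on 4 libraries and are a description.

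The 8 genes tested at E7.5 were at least 27.2-fold lower at each later stage, in tissues that are not trophoblast. Levels are pooled over all libraries of a stage and are not tested, since stages differ in tissue and were normalised separately. From E7.5 through E8.5 to E9.5, Plac1 had 249.4, 0.887 and 0.673 RPM. Plet1 had 205, 1.398 and 1.14 RPM at these stages, Ascl2 31.7, 0.995 and 0.417 RPM, and Elf5 10.6, 0.390 and 0.255 RPM. Hand1 had 183, 1.60 and 0 RPM. Gcm1 had 0.174, 0.108 and 0 RPM. At E7.5 Cts8 had 94.1 RPM, Rhox6 24.8, Rhox9 11.6 and Tpbpa 0.937. These last genes were at 0 reads in all 11 later libraries, where 3 reads over a stage would be 0.0403 RPM at E8.5 and 0.0696 RPM at E9.5. For Cts8 this put E7.5 at least 2334-fold above E8.5. Per kilobase of exon (RPKM, mean ± SD, n = 2 each), the order at E7.5 differed between the genotypes. In KO it ran from Plac1 (266 ± 30.7) through Plet1 (157 ± 43.8), Hand1 (101 ± 44.1), Cts8 (65.5 ± 17.4), Rhox6 (32.5 ± 14.9), Ascl2 (17.7 ± 1.16), Rhox9 (6.75 ± 3.29), Elf5 (1.46 ± 0.641) and Tpbpa (0.467 ± 0.284) to Gcm1 (0.0549 ± 0.0776). In WT it ran from Plac1 (88.4 ± 35.2) through Hand1 (73.1 ± 17.6), Plet1 (48.7 ± 11.8), Ascl2 (20.7 ± 4.61), Rhox6 (14.3 ± 2.19), Cts8 (7.72 ± 8.33), Rhox9 (2.15 ± 0.244), Elf5 (1.94 ± 0.377) and Tpbpa (0.383 ± 0.541) to Gcm1 (0.108 ± 0.0786). Cts8 thus stood above Rhox6 and Ascl2 in KO and below both in WT. Within 1 SD, the neighbours that could not be ordered in KO were Plet1 and Hand1, Hand1 and Cts8, and Rhox6 and Ascl2. In WT they were Plac1, Hand1 and Plet1 in turn, Ascl2, Rhox6, Cts8, Rhox9 and Elf5 in turn, and Tpbpa and Gcm1.

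**Figure D5:**
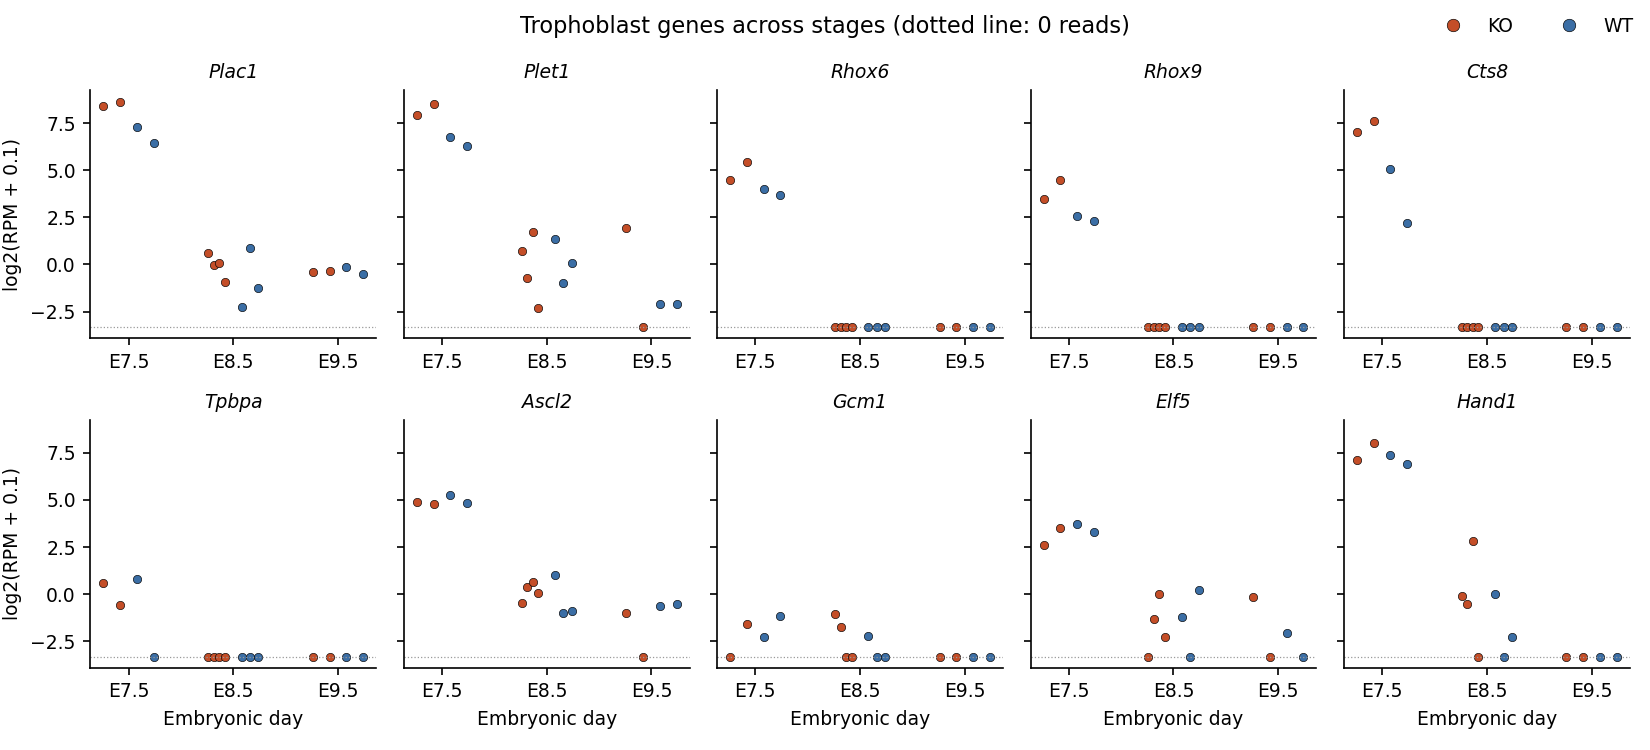
Level of each gene (RPM, log scale) in each library by stage, KO left of WT within each stage. Levels are highest at E7.5 except for Gcm1, whose highest library is KO1 of E8.5 (0.382 RPM, against 0.339 RPM in WT2 of E7.5). Rhox6, Rhox9, Cts8 and Tpbpa hold 0 reads at both later stages.

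At E8.5 the groups of every gene overlapped or both stood at 0, and limma called 0 of 12257 genes (0%), with 6.05% at an unadjusted p below 0.05, 6.54% with groups that did not overlap, and 28 genes called by DESeq2. Hand1 had 8.62, 6.25, 55.9 and 0 normalised counts in the KO libraries, against 10.8, 0 and 0.978 in the WT libraries. KO3 alone was high, and the log2 fold change of 1.47 (limma, adjusted p = 0.878) had an interval of -1.38 to 4.32. Without KO3 its mean fell under the minimum for the test. That library also had a summed level of 140.7 RPM for extraembryonic and cardiac mesoderm genes, against 31.0 to 49.2 RPM in the other KO libraries and 27.6 to 63.5 RPM in WT libraries, and whether the transcripts share a source was not tested. Plet1 had 15.7, 5.20, 25.9 and 1.16 in KO libraries, against 29.8, 4.91 and 8.80 in WT libraries (log2 fold change -0.46, limma, adjusted p = 0.956), and the sign turned, to 0.21, without KO4 or WT1_5s. Ascl2 had 6.27, 12.5, 12.03 and 10.4 in KO libraries, against 23.0, 4.91 and 3.91 in WT libraries (log2 fold change 0.31, limma, adjusted p = 0.958), and the estimate was -0.12 without WT3. Plac1 had 14.9, 9.37, 7.82 and 4.64 in KO libraries, against 1.35, 20.9 and 2.93 in WT libraries, and was under the minimum for the test. Elf5 (0, 3.12, 7.22 and 1.16 in KO libraries, against 4.06, 0 and 9.78 in WT libraries) and Gcm1 (3.92, 2.08, 0 and 0 in KO libraries, against 1.35, 0 and 0 in WT libraries) were also under it. KO4 and WT2 are the only libraries of different genotype that share a code number here (169), and between them the log2 difference was -1.45 for Plet1, 0.95 for Ascl2 and 0 for Hand1, with no test. The giant-cell marker Prl3d1 and the cathepsin Cts7 were at 0 in all 7 libraries. Other genes of the giant-cell list held reads, and in every library Cited1 (84 to 254 reads) and Lifr (21 to 71 reads) held the most. Prl3b1 had 18 reads in KO1, 2 in KO2 and 1 in WT2. That list summed to 16.2 to 28.0 RPM in KO libraries and 12.5 to 30.9 RPM in WT libraries.

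At E9.5 limma called 5700 of 12000 genes (47.5%), with 24.5% of the genes tested higher in KO and 23% lower, and Plet1, the 1 of the 10 genes that was tested, was not among them. Both KO libraries carry code number 171 and both WT libraries 209, so code number and genotype cannot be told apart at this stage. Plet1 had 48.6 and 0 normalised counts in KO libraries, against 1.01 and 1.01 in WT libraries. Its 46 reads in KO1 carried the log2 fold change of 1.81 (limma, adjusted p = 0.499, 95% interval -3.49 to 7.10), which was 4.62 with an adjusted p of 0.00264 when KO2 was left out and KO1, alone in its group, was assumed to vary like the WT libraries. The authors' deposited table gives a log2 fold change of 4.595 with an SE of 2.31 and an adjusted p of 0.1186 for it. KO1 also held 21013 RPM of primitive erythroid genes, against 22.9 RPM in KO2 and 1.1 and 2.5 RPM in WT libraries. Erythroid genes were not alone in setting KO1 apart. The other Rhox genes summed to 11.9 RPM in KO1, against 0.814 in KO2 and 0.959 and 0.740 in WT libraries. In KO1 that sum was all from Rhox5, with 147 reads. Epcam had 235 normalised counts in KO1, against 42.5 in KO2 and 17.2 and 10.1 in WT libraries. The part of any of these in Plet1 was not tested. Plac1 had 8.44 and 10.2 in KO libraries, against 6.08 and 4.54 in WT libraries, all resting on 6 to 9 reads. Both KO libraries lay above both WT libraries, as they did for 38.6% of the genes tested. In RPM the groups of Plac1 overlapped, with 0.648 and 0.698 in KO libraries, against 0.822 and 0.606 in WT libraries. Elf5 had 10.6 and 0 in KO libraries, against 1.01 and 0 in WT libraries, and Ascl2 had 5.28 and 0 in KO libraries, against 4.05 and 4.54 in WT libraries.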

How the data were processed

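RNA was measured by poly(A)-primed, unstranded RNA-seq (SMART-Seq v4, Nextera XT) in 15 libraries, per the labels' protocols. The submitters' processing notes name FastQC 0.11.5, STAR 2.7.0f and mm10. A counter, annotation or normaliser is not given in the sources used here. For each stage the authors deposited a table of normalised signal, which is gene counts divided by 1 factor per library. Their deposited tables of selected genes hold base means, log2 fold changes with errors, a score and p-values, raw and adjusted; only the Plet1 row was printed from them. The deposited E7.5 list of higher genes matched the base means of the E7.5 table for 3 of 3365 genes and was not used.

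All values came out as whole reads within 0.01 (100%), which gave each library's depth; 3 reads in a library are 0.202 to 0.611 RPM. RPM and RPKM were computed from these reads. Groups came from sample titles. Each stage was tested alone on log2(value + 1) by limma 3.58.1 (trended, R 4.3.3, two-sided) for genes with a mean of at least 10, with Benjamini-Hochberg adjustment at 0.05. EdgeR 4.0.16 and DESeq2 1.42.0 on recovered reads were alternatives, as were other pseudocounts, minima, scalings, replicate blocks and single libraries left out. The fits were tested on simulated data. Genes outside the 10 were named as the up to 4 smallest unadjusted p-values of a list, from which those shown were picked, or as most alike. Prl8a2, Des and Cryab at E7.5, Prl3b1 at E8.5 and Epcam at E9.5 were named outside that rule, after values were seen. So were the markers Prl3d1, Cts7, Sox10, Pou5f1, Xist and Ddx3y. The 10 genes and the lists were chosen with earlier results of these data known. Symbols were matched to GENCODE M21 (GRCm38), 23334 of 24421, and all 10 genes matched.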

Additional observations from a re-analysis of the deposited data

Results flagged for a closer look

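Hand1 in the E8.5 KO libraries was singled out because 1 library lay far from the others. KO3 had 55.9 normalised counts, beside 8.62 in KO1, 6.25 in KO2 and 0 in KO4, and its gap to the next library was 0.846 of the whole range. A gap of this kind arises by chance in some groups of this size. The WT libraries had 10.8, 0 and 0.978. KO3 also had 75.01 RPM of visceral endoderm genes, against 25.3 to 36.0 RPM in the other KO libraries and 24.9 to 34.1 RPM in WT libraries.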

How the results depend on the processing

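At E7.5 the count of genes called was 0 in the test reported, 31 by DESeq2 and 17 with the libraries of code number 239 only (KO1, WT1 and WT2); of the 10 genes 0 were called in it, 3 by DESeq2 (Plac1 adjusted p = 0.00445, Plet1 0.00195, Cts8 0.000123) and 1 by code number 239 only. Leaving out 1 library gave 12 to 38 genes and 0 to 1 of the 10, which was Cts8, and a library left alone in its group was assumed to vary like the other group. With a replicate block, 47 genes, 3 of the 10 among them, were called at E7.5. Same-numbered libraries deviated in opposite ways (correlation -0.116 at E7.5, -0.171 at E9.5), so the numbers were not taken to pair the libraries, and at E8.5 the correlations were 0.076, -0.025 and 0.554. A block with the numbers crossed, chosen after seeing the data, called 48 genes, 3 of the 10 among them, at E7.5 and 6665 genes at E9.5. At E8.5, 28 genes were called by DESeq2, 678 with the replicate block and 0 to 3 with a library left out, in no case 1 of the 10. At E9.5 leaving out 1 library gave 1920 to 8689 genes and 0 to 1 of the 10 (Plet1, without KO2), and the replicate block 5722. Over all alternatives at E7.5 the log2 fold changes ran from 1.33 to 1.97 for Plac1, 1.37 to 1.997 for Plet1, 0.61 to 1.62 for Rhox6, 1.01 to 2.08 for Rhox9 and 2.34 to 5.004 for Cts8, all above 0. Leaving out 1 library gave -0.93 to 0.02 for Elf5 and -0.07 to 0.90 for Hand1 at E7.5, and -0.9996 to 0.21 for Plet1 and -0.12 to 0.51 for Ascl2 at E8.5. Signs turned at E7.5 for Elf5 without KO1 (0.023) and for Hand1 without KO2, the same fit as code number 239 only (-0.069). At E8.5 they turned for Ascl2 by DESeq2 (-0.020) and without WT3 (-0.12). Plet1 turned at E8.5 with the replicate block, without KO4 and without WT1_5s (0.21 each). The cause of these turns was not tested. Quantile normalisation moved the median of all genes by 0.24 (log2) at E9.5. With 27 reads of Cts8 in WT2, 29 of Elf5 in KO1 and under 20 of Tpbpa and Gcm1 in any E7.5 library, depth limits those values.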
